A study of Mus musculus with 12 samples.

Results

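The 5 FGF receptor genes of the mouse, Fgfr1, Fgfr2, Fgfr3, Fgfr4 and Fgfrl1, were followed through chromatin contact maps of embryonic stem cells and of neuronal committed cells made from them. They are 5 of the 21728 protein-coding genes of the annotation and were chosen by name. An interaction counted for a gene when one of its anchors, the restriction-fragment intervals that the contact caller joins, overlapped the gene body plus 10 kb on each side, called the window below. Read pairs were counted from the score column, the number of read pairs that support an interaction. Each read pair has an end in each of its anchors, and a read pair with both anchors in a window gave that window both ends.

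All libraries came from 1 cell line, the mouse embryonic stem cell line E14Tg2A. ESC were grown with leukemia inhibitory factor (LIF, 100 U/mL), which keeps them undifferentiated. NCC had been treated with 1 µM retinoic acid for 48 h without LIF. Each cell type was assayed by Hi-C, which ligates and sequences DNA fragments that lie close together in the nucleus, and by HiChIP, the same ligation followed by immunoprecipitation, with an antibody to FGFR1 or an antibody to CTCF. The labels list 12 samples, 2 for each of 3 assays in each of 2 cell types, but the replicates of a group were merged into 1 table. The values below therefore have no replicate error and no test, and intervals are exact 95% binomial or Poisson intervals of the read-pair counts, which cover counting error only and treat read pairs as independent. A difference outside its interval is a difference between merged tables, not one shown to exceed the spread between cultures. Contact maps carry no RNA level, so the cell-type labels could not be checked against marker genes. The 6 tables held 1065662 (NCC, CTCF HiChIP) to 21279750 (NCC, Hi-C) read pairs and 168031 to 248300 anchors each, and anchors were called separately in every table.

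Fgfr1 to Fgfr4 encode receptor tyrosine kinases. They bind fibroblast growth factors together with heparan sulfate or a klotho co-receptor, dimerize, and signal through the adaptor FRS2 to the RAS and ERK cascade and through phospholipase C gamma. Fgfrl1 encodes a related receptor that lacks the kinase domain. FGF signalling through ERK moves mouse embryonic stem cells out of self-renewal and toward neural and other fates. FGFR1 protein also enters the nucleus, which is why it can be immunoprecipitated with chromatin, and CTCF is the zinc finger protein found at many loop ends and domain borders.

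In mm10 coordinates, Fgfr1 lies at chr8:25513654-25575718 on the plus strand, with a window of 82.06 kb. Fgfr2 lies at chr7:130162451-130266808 on the minus strand, with a window of 124.4 kb. Its body was taken from RefSeq, because 1 GENCODE transcript of the gene runs on to position 133123350. Fgfr3 (chr5:33721674-33737068), Fgfr4 (chr13:55152640-55168759) and Fgfrl1 (chr5:108692382-108706924) lie on the plus strand and are shorter, with windows of 35.4, 36.12 and 34.54 kb. Fgfr3 and Fgfrl1 share chromosome 5.

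The windows and their strongest partner bins were searched on both strands for the CTCF core motif, because CTCF is one of the immunoprecipitated proteins. The Fgfr1 window held 1 match and the other 4 windows held 0, where 32.7% of all gene windows, which differ in length, held a match. Of the 20 distinct bins of 20 kb that ranked among the 3 strongest partners of a gene in either cell type, 4 held a match, against 8.99% of all 20 kb bins of the genome. The runs below are all the matches found. They are 24 bases of the mm10 reference, 5′ to 3′ on the strand named, with the 12 bases of the match in capitals.
Fgfr1 window, chr8:25575287-25575310, minus strand: aagcaaCCAGCAGGTGGCagaatt
Fgfr1 partner bin, chr8:25363157-25363180, plus strand: ctacatCCAGTAGAGGGCtaatat
Fgfr2 partner bin, chr7:129649151-129649174, plus strand: ctgtggCCAGCAGAGGGCagcaaa
Fgfr3 partner bin, chr5:33640792-33640815, plus strand: gagtaaCCACCAGGTGGCagttaa
Fgfr4 partner bin, chr13:54799852-54799875, plus strand: aaatgaCCACCAGAGGGCagcaaa
The Fgfr1 match lay 61.6 kb from the gene start, in an untranslated part of an Fgfr1 exon close to the 3′ end of the gene. It fell inside anchors of both CTCF HiChIP tables, with 60 ends in ESC and 45 in NCC, inside an NCC anchor of FGFR1 HiChIP with 100 ends and inside an ESC Hi-C anchor with 1464 ends. No NCC Hi-C anchor and no ESC FGFR1 HiChIP anchor covered it. A match is a run of letters, not a bound site, and the absence of a match says only that these letters are not in the window.

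In Hi-C all 5 receptor genes lay above the median gene, and Fgfr1, Fgfr3 and Fgfr4 were the most contacted per kb. Levels are given as ends per kb of window per 1000000 ends of the table, so that genes of different length can be compared. Fgfr1, the receptor whose protein was immunoprecipitated in these maps, had 5743 Hi-C ends in ESC and 5859 in NCC, a level of 1.68 in each cell type. Fgfr2 had 4223 and 6184 ends, levels of 0.817 and 1.17. Fgfr3 had 2938 and 1953 ends, levels of 2 and 1.3, the highest of the 5 genes in ESC. Fgfr4 had 2289 and 2186 ends, levels of 1.52 and 1.42. Fgfrl1, the receptor without a kinase domain, had 1693 and 1880 ends, levels of 1.18 and 1.28. The median gene had 0.688 in ESC and 0.69 in NCC, and the receptor genes stood between percentiles 57.7 (Fgfr2 in ESC) and 92.9 (Fgfr3 in ESC). The order in ESC was Fgfr3, Fgfr1, Fgfr4, Fgfrl1 and Fgfr2, and in NCC it was Fgfr1, Fgfr4, Fgfr3, Fgfrl1 and Fgfr2. Without replicates no neighbouring pair in these orders can be said to differ beyond the spread between cultures.

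**Figure D1:**
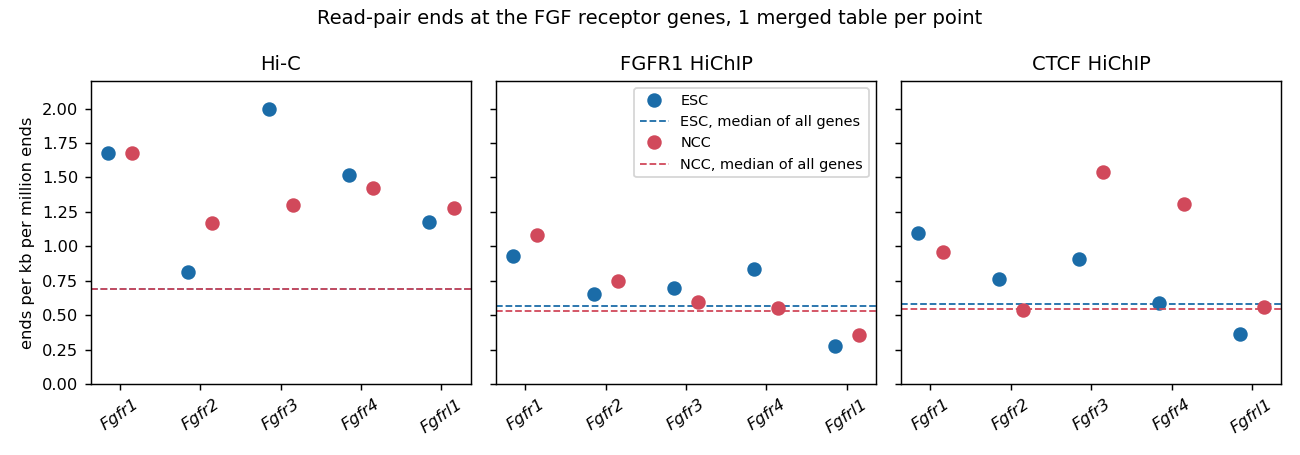
Read-pair ends per kb of window per 1000000 ends of the table (vertical axis) for the 5 FGF receptor genes (horizontal axis) in Hi-C, FGFR1 HiChIP and CTCF HiChIP, with 1 point per merged table and dashed lines at the median of all genes. Hi-C levels of the receptor genes run from 0.817 to 2, all above the median gene, while Fgfrl1 lies below it in both FGFR1 HiChIP tables.

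FGFR1 HiChIP gave a different order, with Fgfr1 first and Fgfrl1 last in both cell types. Fgfr1 had 410 ends in ESC and 574 in NCC, levels of 0.932 and 1.08, at percentiles 78.2 and 92.4 of genes. Fgfr2 had 435 and 604 ends, levels of 0.653 and 0.751. Fgfr3 had 132 and 137 ends, levels of 0.696 and 0.599. Fgfr4 had 162 and 129 ends, and its level of 0.837 was next to that of Fgfr1 in ESC while that of 0.553 in NCC exceeded only Fgfrl1. Fgfrl1 had 51 and 80 ends, levels of 0.276 and 0.358, and was the only receptor gene below the median gene, which had 0.569 and 0.528.

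CTCF HiChIP was the shallowest assay, and Fgfr1 led in it in ESC but not in NCC. Fgfr1 had 222 ends in ESC and 168 in NCC, levels of 1.1 and 0.961. Fgfr3 had 79 ends in ESC and 116 in NCC, levels of 0.91 and 1.54. Fgfr4 had 52 and 101 ends, levels of 0.587 and 1.31. These 2 genes held the highest levels in NCC, at percentiles 93.6 and 89.5. Fgfr2 had 233 and 142 ends, levels of 0.764 and 0.536, and Fgfrl1 had 31 and 41 ends, levels of 0.366 and 0.557. The median gene had 0.578 in ESC and 0.548 in NCC.

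The design asks how these contacts differ between ESC and NCC. In Hi-C, Fgfr3 had fewer ends in NCC and Fgfr2 had more, while Fgfr1, Fgfr4 and Fgfrl1 were nearly level, at 0.997-fold, 0.933-fold and 1.08-fold. Scaled to the table totals, the log2 ratio of ends, NCC over ESC, was -0.62 for Fgfr3 (0.649-fold), and in read pairs, which count each pair once, it was -0.53 with an interval of -0.62 to -0.44. For Fgfr2 it was 0.52 in ends (1.43-fold) and 0.49 in read pairs (0.43 to 0.56). The ratios of ends for Fgfr1, Fgfr4 and Fgfrl1 were 0.00, -0.10 and 0.12. Past 1.5-fold, 1 of 5 receptor genes was lower in NCC, Fgfr3, where 10.1% of 19986 genes were lower, and 0 were higher, where 7.42% of genes were higher. The Fgfr3 value changed with the window, and was -0.15 both for the gene body alone and with 25 kb on each side. Without read pairs inside 1 anchor it was -0.57, just short of 1.5-fold. Fgfr2 passed 1.5-fold with anchors placed by midpoint (0.62) and with a score of at least 2 (0.68), and Fgfrl1 was lower past it, at -0.77, for its body alone. The median of the 5 was 0.00, against -0.02 for all genes. The 2 Mb around Fgfr3 had a ratio of 0.08 and the 2 Mb around Fgfr2 one of 0.16.

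The length of DNA covered by anchors moved with both Hi-C differences. In the Fgfr3 window 26.2 kb were anchored in ESC and 17.1 kb in NCC, a log2 ratio of -0.61, and ends per anchored base had a ratio of -0.01. The single Fgfr3 anchor with the same start and end in both tables held 223 ends in ESC and 194 in NCC (-0.23). In the Fgfr2 window the anchored length was 69.5 kb in ESC and 86.1 kb in NCC, and ends per anchored base had a ratio of 0.21. Its 5 anchors with equal coordinates held 1386 and 1525 ends (0.10). Across all genes in Hi-C, 0.856% were higher and 1.7% lower past 1.5-fold per anchored base. No receptor gene passed 1.5-fold per anchored base in any of the 3 assays. These measures were added after the data were seen, and the part of anchor calling in the ratios was not tested further.

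**Figure D2:**
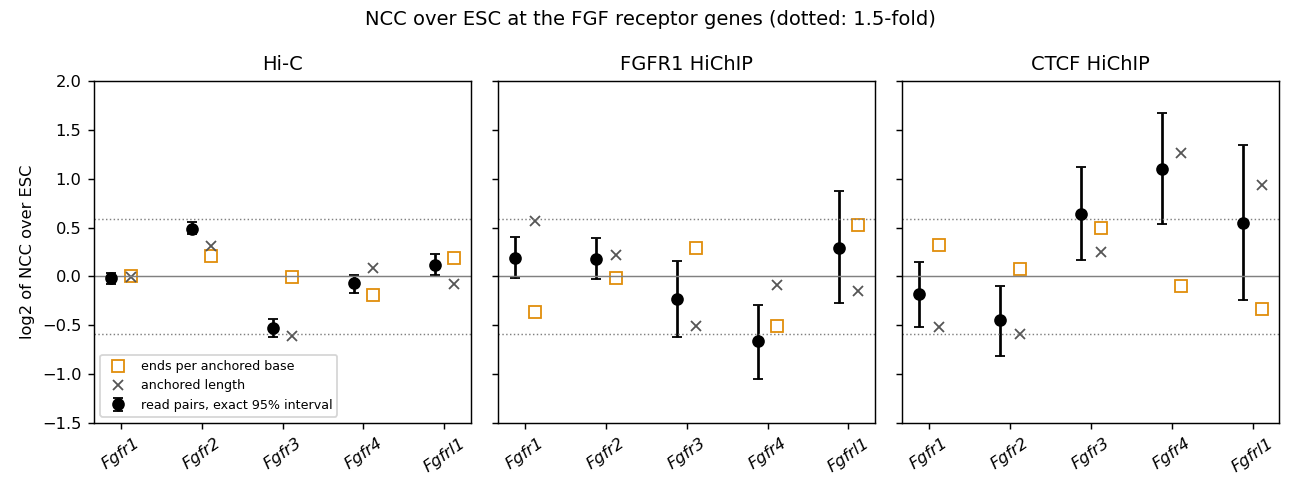
Log2 ratio of NCC over ESC (vertical axis) at the 5 FGF receptor genes (horizontal axis) in each assay. Circles are read pairs with exact 95% intervals that cover counting error only, squares are ends per anchored base, crosses are the anchored length, and dotted lines mark 1.5-fold. Fgfr3 lies lowest in Hi-C at -0.53 in read pairs, and Fgfr4 has the highest CTCF HiChIP value, 1.10 in read pairs.

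In FGFR1 HiChIP, Fgfr4 was the receptor gene with the largest difference between the cell types. Its ratio was -0.60 in ends (0.66-fold) and -0.66 in read pairs, with an interval of -1.05 to -0.29. The 2 Mb around it had -0.43, and ends per anchored base gave -0.51. It was the 1 of 5 receptor genes lower past 1.5-fold, where 25% of 19786 genes were lower, and 0 were higher, where 15.5% of genes were higher. Setting the median of all genes to 0, scaling to intra-chromosomal read pairs or using the gene start left no receptor gene past 1.5-fold. In those settings 16.4% to 20.8% of genes were higher and 19.2% to 30.6% lower. With a score of at least 2, 1 was higher and 0 lower, beside 22.1% and 30.5% of genes. Anchors placed by midpoint gave 1 and 1, beside 15.7% and 25.4%, and gene bodies alone 0 and 2, beside 17.5% and 26.7%. Fgfr1 and Fgfr2 had ratios of 0.21 and 0.20 in ends, and their read-pair intervals, -0.02 to 0.40 and -0.03 to 0.39, reached below 0. Fgfr3 had -0.22 and Fgfrl1 0.38, with intervals of -0.62 to 0.16 and -0.27 to 0.87 in read pairs. Per anchored base Fgfr1 turned to -0.36, with anchored lengths of 26.2 kb in ESC and 38.9 kb in NCC, and Fgfr2 to -0.02. The median of all genes was -0.26 by this measure. Per anchored base 2.67% of all genes were higher and 17.6% lower past 1.5-fold in this assay. The median of the 5 was 0.20, against -0.14 for all genes.

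In CTCF HiChIP, Fgfr4, Fgfr3 and Fgfrl1 had more ends in NCC, and Fgfr2 and Fgfr1 had fewer. The ratios of ends were 1.16 for Fgfr4 (2.23-fold), 0.76 for Fgfr3 (1.69-fold) and 0.61 for Fgfrl1 (1.52-fold). In read pairs the interval was 0.54 to 1.67 for Fgfr4 and 0.17 to 1.12 for Fgfr3, and for Fgfrl1, with 26 and 33 read pairs, it ran from -0.24 to 1.35. Thus 3 of 5 were higher past 1.5-fold, where 20% of 18761 genes were higher, and 0 were lower, where 25.7% were lower. For gene bodies alone 1 was higher and 1 lower, beside 22.3% and 25.6% of genes. Without read pairs inside 1 anchor the counts were also 1 and 1, beside 19.9% and 25.6%. With 25 kb on each side they were 1 and 0, beside 16.2% and 22.6%. Within 10 kb of the gene start, with no minimum of ends applied here, 4 ratios were above and 1 below 1.5-fold. Of the genes with at least 20 ends, 26% were higher and 30.3% lower there. Fgfr2 had -0.51 (read pairs -0.45, interval -0.81 to -0.10) beside -0.50 for the 2 Mb around it, and Fgfr1 had -0.20. The median of the 5 was 0.61, against -0.06 for all genes, but it became -0.22 with the gene bodies alone and -0.08 with 25 kb on each side.

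Anchored length again moved with these values. At Fgfr4 it went from 5.38 kb in ESC to 12.9 kb in NCC, and ends per anchored base had a ratio of -0.10. The 2 Fgfr4 anchors with equal coordinates held 35 and 36 ends (0.24). At Fgfrl1 it went from 4.68 to 8.95 kb, and the ratio per anchored base was -0.33. At Fgfr3 it went from 9.84 to 11.7 kb, and the ratio per anchored base stayed above 0, at 0.50. At Fgfr1 and Fgfr2 the anchored length was smaller in NCC (log2 ratios -0.52 and -0.59), and per anchored base their ratios turned to 0.32 and 0.08. With a score of at least 2 they were 0.35 and 0.10. Per anchored base 9.29% of all genes were higher and 11.7% lower past 1.5-fold in this assay. Taking the Hi-C ratio from the CTCF HiChIP ratio gave 1.38 for Fgfr3 and 1.26 for Fgfr4, at percentiles 92.4 and 91.2 of genes, and -1.03 for Fgfr2, at percentile 14.1, where the median gene had -0.05.

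Set against Hi-C of the same cells, both immunoprecipitations held a smaller share of ends at most receptor genes. In ESC the log2 ratio of FGFR1 HiChIP to Hi-C was -0.85 for Fgfr1, -0.32 for Fgfr2, -1.52 for Fgfr3, -0.86 for Fgfr4 and -2.10 for Fgfrl1. So 4 of 5 were below Hi-C past 1.5-fold, where 32.8% of genes were below, and 0 were above, where 14.0% were above. In NCC the ratios were -0.63, -0.64, -1.11, -1.36 and -1.84 in the same order. There 5 of 5 were below, where 41.3% of genes were below, and 0 were above, where 16.3% were above. Fgfr1 and Fgfr2 stood at percentiles 39.2 and 39 of genes. When scaled to the own chromosome, around the gene start, or with a score of at least 2, 3 of 5 were below. In these settings 39.7%, 43.6% and 39.3% of all genes were below. Fgfrl1 stood lowest in both cell types, at percentile 2.27 in ESC and 5.34 in NCC. The medians of the 5 were -0.86 in ESC and -1.11 in NCC, against -0.25 and -0.39 for all genes. Counted as ends per window, the locus of the immunoprecipitated receptor itself was thus not above its Hi-C share in either cell type. Anchors in the Fgfr1 window covered 26.2 kb in FGFR1 HiChIP and 57.4 kb in Hi-C in ESC, and 38.9 and 57.1 kb in NCC.

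CTCF HiChIP over Hi-C separated the cell types more. In ESC the ratios were -0.61 for Fgfr1, -0.10 for Fgfr2, -1.13 for Fgfr3, -1.38 for Fgfr4 and -1.69 for Fgfrl1. Below Hi-C past 1.5-fold were 4 of 5, where 29.8% of genes were below, and 0 were above, where 16.0% were above. In NCC they were -0.80, -1.12, 0.25, -0.12 and -1.20, so that Fgfr3 was the only value above 0. Below were 3 of 5, where 34.1% of genes were below, and 0 were above, where 17.7% were above. All 4 comparisons share the Hi-C tables, so their ratios are not independent of each other. HiChIP anchors also covered less of each window than Hi-C anchors. They covered 13.5% to 46.5% of the window in HiChIP and 46.2% to 71.7% in Hi-C. No ratio of HiChIP to Hi-C was taken per anchored base, so the part of anchored length in these ratios was not tested.

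The receptor genes differed from each other in the distances to which their contacts reached. Distances are between anchor midpoints, and shares are of all Hi-C read pairs of the window. Partners within 1 Mb took 75.5% of the Fgfr1 read pairs in ESC and 74.3% in NCC, 66.4% and 71.3% for Fgfr2, 74.8% and 71.8% for Fgfr3, 74.6% and 70.2% for Fgfr4, and 67% and 63.3% for Fgfrl1. The median gene had 69.5% and 66.8%.

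Partners at 20 to 50 kb took 17.1% of the Fgfr3 read pairs in ESC (interval 15.6% to 18.7%) and 18.8% in NCC (16.9% to 20.8%), where the median gene had 8.82% and 8.57%. That placed Fgfr3 at percentiles 98.7 and 99.6. At 0 to 20 kb all 3 short genes lay above the median gene, which had 12.1% and 11.9%. Fgfr3 had 19.2% and 16.5% there, Fgfr4 18.4% and 16.8%, and Fgfrl1 15% and 18.8%. Fgfr4 was low beyond 1 Mb on its chromosome, with 10.5% and 11.8% against 17.3% and 18.2%.

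Fgfr1 contacts gathered below 500 kb and fell off beyond. Partners at 200 to 500 kb took 15.4% in ESC and 13.7% in NCC, against 10.6% and 9.81% for the median gene. Partners at 500 to 1000 kb took 2.56% and 2.35%, against 4.98% and 4.63%. Fgfr2 had the opposite long-range profile, with 7.97% at 500 to 1000 kb in both cell types. Its share beyond 1 Mb was 19.8% (18.4% to 21.2%) in ESC and 14.8% (13.8% to 15.8%) in NCC, while the median gene went from 17.3% to 18.2%. Fgfrl1 had the highest share beyond 1 Mb of the 5 genes, 22.2% and 25%.

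**Figure D3:**
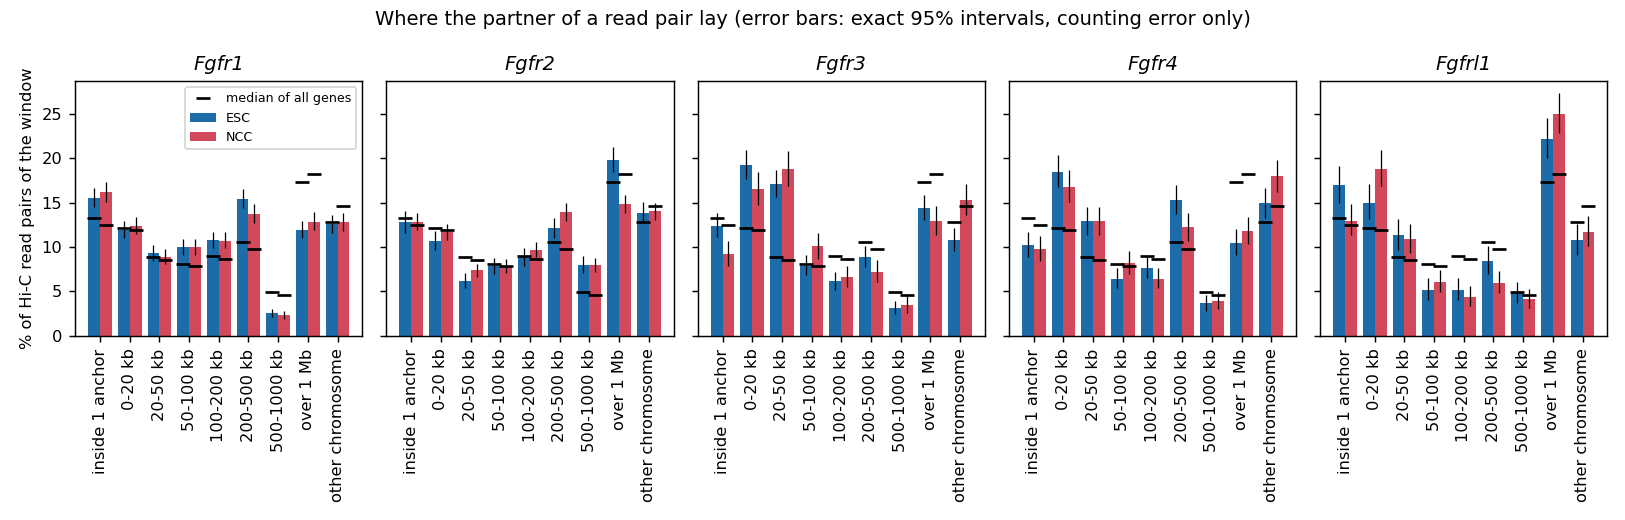
Share of the Hi-C read pairs of each FGF receptor gene window, in percent (vertical axis), by distance class of the partner anchor (horizontal axis), for ESC and NCC, with exact 95% intervals of counting error and black dashes at the median of all genes. Fgfr3 stands above the median gene at 20 to 50 kb with 17.1% and 18.8%, and Fgfr1 stands below it at 500 to 1000 kb with 2.56% and 2.35%.

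Hi-C contacts of Fgfr1 pointed upstream of the gene and those of Fgfr2 downstream, in both cell types. Between 40 kb and 1 Mb from the window, 1018 of 1374 Fgfr1 read pairs in ESC lay upstream, 74.1% (71.7% to 76.4%), and in NCC 76.5% (74.1% to 78.7%). An expected number was computed from the genome-wide contact frequency at each distance and the total ends of both anchors. It placed 48.6% and 51.9% upstream, and distance alone placed 45% and 50.9% there. The same side led in HiChIP, with 69.3% and 67.4% upstream in FGFR1 HiChIP and 77.2% and 77.6% in CTCF HiChIP. For Fgfr2 34.7% and 32.4% lay upstream, where 58.1% and 55.1% were expected. In FGFR1 HiChIP the Fgfr2 shares were 28% and 40.4%, and in CTCF HiChIP they were 50% (36.6% to 63.4%) and 40.5% (25.6% to 56.7%), which did not separate the sides. Fgfr4 had 64.9% and 64.2% upstream, where 47% and 46.4% were expected. Fgfr3 had 50.1% (45.8% to 54.3%) and 48.7% (43.6% to 53.8%) upstream, where 58.2% and 58% were expected, and with distance alone 50.3% and 51.4%. Fgfrl1 had 78.4% and 86.7% upstream, close to the 77.7% and 85.1% expected, since most ends of the anchored bins around it, 83.9% and 89.5%, lay upstream.

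**Figure D4:**
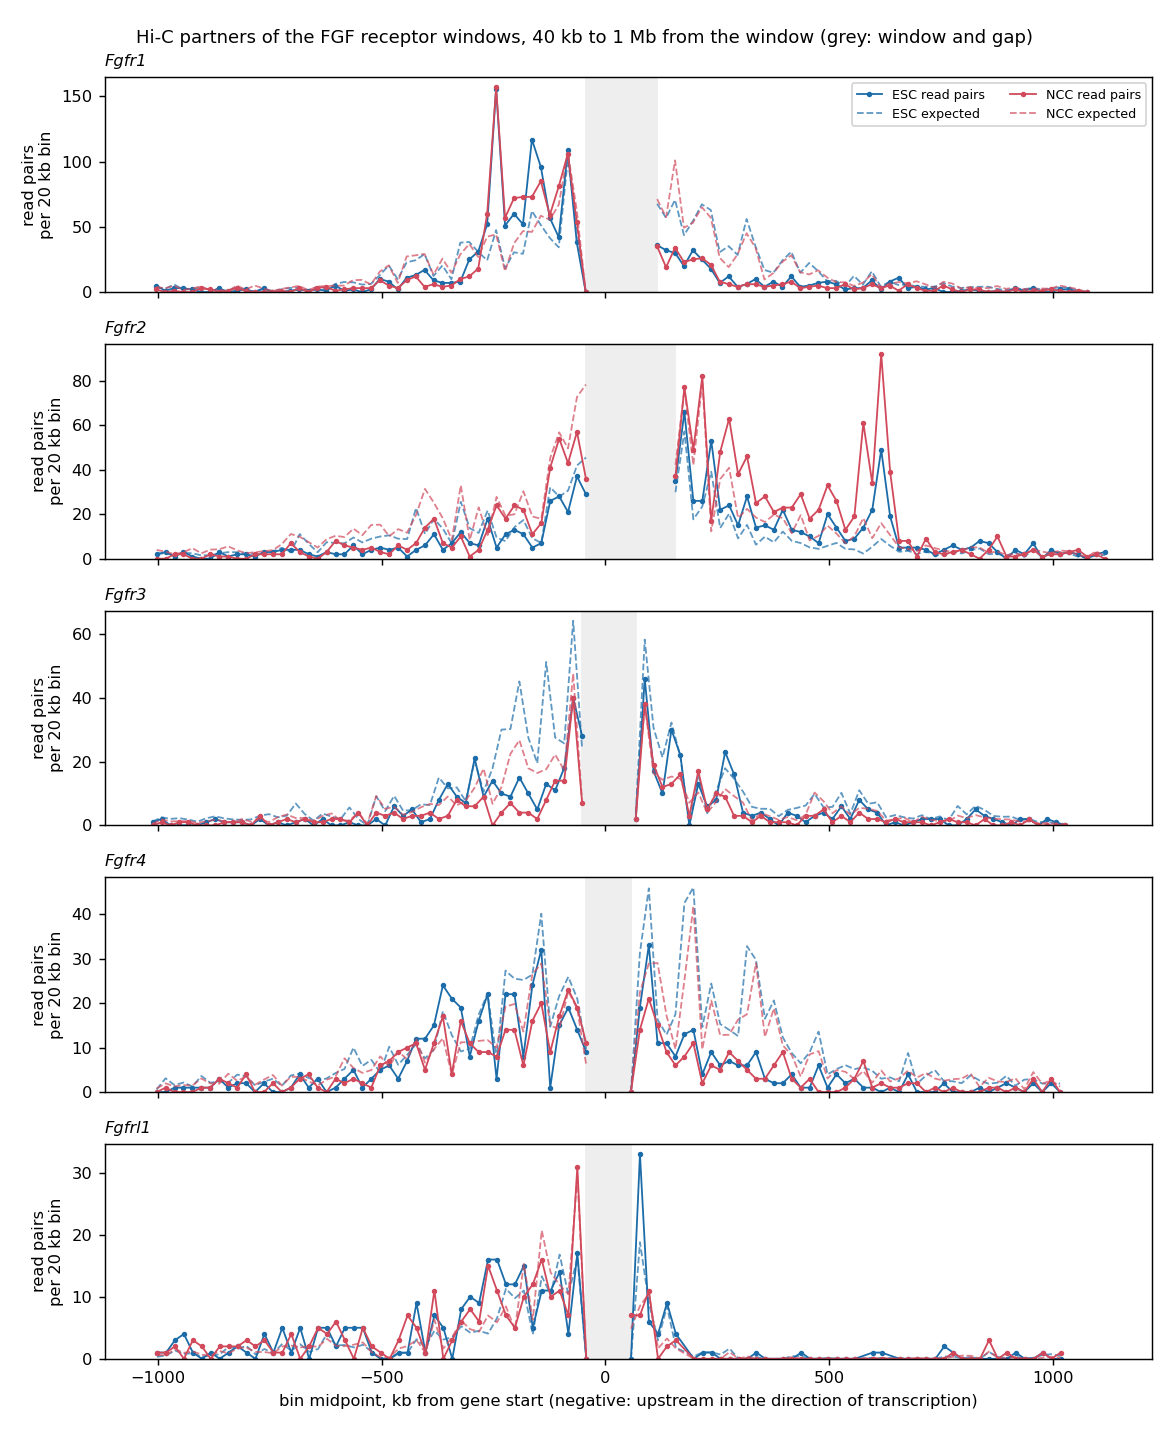
Hi-C read pairs per 20 kb partner bin (vertical axis) against the distance of the bin midpoint from the gene start in kb (horizontal axis, negative values upstream in the direction of transcription) for the 5 FGF receptor genes. Solid lines are ESC and NCC counts, dashed lines are the counts expected from distance and anchor strength, and grey marks the window and a 40 kb gap. The upstream Fgfr1 peak reaches 156 and 157 read pairs and the far downstream Fgfr2 peak 49 and 92.

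The strongest Fgfr1 partner was the same bin in both cell types and lay between Fgfr1 and Tacc1, which encodes a centrosomal coiled-coil protein. This bin, chr8:25260001-25280000, is 234 kb upstream of the window and 3.41 kb from Tacc1. It shared 156 read pairs with the window in ESC and 157 in NCC, which was 3.29 times (2.79 to 3.84) and 3.56 times (3.02 to 4.16) the number expected from distance and anchor strength. The log2 ratio between the cell types was -0.02 (-0.35 to 0.30). In CTCF HiChIP it also ranked first, with 8 read pairs in ESC and 10 in NCC, and in FGFR1 HiChIP it held 7 and 11.

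In ESC the contacts with this bin were heaviest at the 3′ end of the gene. There 56 of the 156 read pairs started from 1 anchor, chr8:25568774-25582195, which covers the exon with the CTCF core motif printed above, and 10.7 were expected there. In NCC this stretch was split into anchors at chr8:25568774-25573313 and chr8:25577071-25582195, with 21 and 17 of 157 read pairs, where 4.69 and 3.25 were expected. The NCC anchor with the most read pairs, 32 where 7.05 were expected, lay in the gene body at chr8:25546084-25553906. The anchor over the gene start gave 7 read pairs in ESC and 29 in NCC, with 4.5 and 9.82 expected. The motif match of the window lay in the gap between the NCC anchors. No match lay in the leading bin itself. The match of the bin at chr8:25360001-25380000, which held 96 read pairs in ESC and 85 in NCC, lay on the opposite strand to that of the window and outside every anchor of the 6 tables. The ESC count for the bin at chr8:25340001-25360000 was 117 and the NCC count 73, a log2 ratio of -0.71 (-1.16 to -0.28).

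Fgfr2 had its farthest strong partner 502 kb downstream, at chr7:129640001-129660000, 4.26 kb from Wdr11, which encodes a WD-repeat protein. The bin shared 49 read pairs with the window in ESC and 92 in NCC, which was 5.53 times (4.09 to 7.31) and 5.77 times (4.65 to 7.07) the expected number, the highest ratio among the bins named here. Scaled to the table totals the counts had a log2 ratio of 0.88 (0.36 to 1.41), but the ratios to the expected number, which take in the larger anchored length in NCC, overlapped. The anchor over the gene start gave 16 of 49 read pairs in ESC and 22 of 92 in NCC, and the anchor upstream of it gave 9 and 18. The CTCF core motif of this bin, printed above, lay in Hi-C anchors of both cell types with 261 and 320 ends. In HiChIP it lay in ESC anchors only, with 36 ends in FGFR1 HiChIP and 30 in CTCF HiChIP. FGFR1 HiChIP held 8 and 6 read pairs here and CTCF HiChIP 2 and 4. The other leading Fgfr2 bins lay 62.5 to 122 kb away. The count at chr7:130020001-130040000 was 53 in ESC and 17 in NCC, and at chr7:130040001-130060000 it was 26 and 82. The ratios to the expected number of these adjacent bins, 1.36 and 1.38, and 1.11 and 1.03, were alike between the cell types.

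For Fgfr3 and Fgfr4 no leading bin, ranked by read pairs, stood above its expected number beyond the counting interval in either cell type. Over all partners between 40 kb and 1 Mb, however, these windows had ratios of only 0.573 to 0.623. The first Fgfr3 bins were chr5:33640001-33660000, which holds the starts of Slbp, Tmem129 and Tacc3, with 40 read pairs in each cell type, and chr5:33800001-33820000, with 46 and 38. The third bins, in the body of Nsd2 in ESC and at its start in NCC, held 30 and 19. The Fgfr4 bins had 17 to 33 read pairs and ratios of 0.692 to 1.41. They lay in the bodies of Nsd1, of Uimc1 and of Unc5a and Hk3, and at the starts of Eif4e1b and Tspan17. Ranked by the ratio to the expected number, the first Fgfr4 bin in ESC was chr13:54820001-54840000, with 19 read pairs and a ratio of 2.08. In NCC it held 16, with a ratio of 1.42, and the first bin there had 1.78 from 11. For Fgfr3 the first bins so ranked had 1.29 from 23 read pairs in ESC and 1.66 from 17 in NCC. No intervals were computed for these ratios.

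Fgfrl1 had the fewest partner read pairs of the 5 genes, 310 in ESC and 279 in NCC between 40 kb and 1 Mb. At chr5:108420001-108440000, which holds the start of Atp5k, a gene for a subunit of the mitochondrial ATP synthase, 16 and 15 read pairs were 3.94 times (2.25 to 6.4) and 2.15 times (1.2 to 3.54) the expected number. The bin at chr5:108760001-108780000 with the start of Rnf212 had 33 read pairs in ESC and 7 in NCC (log2 ratio -2.27, interval -3.69 to -1.07), and its ratios to the expected number were 1.75 (1.21 to 2.46) and 0.821. At chr5:108440001-108460000, with the start of Mfsd7a, the ratios were 2.45 and 1.87 from 16 and 11 read pairs. At the starts of Gak and Tmem175 the counts were 17 and 31, and at the start of Cplx1 they were 11 and 16. Over the 5 genes, 10 of the 15 leading bins were shared between the cell types, and 6 of 15 when bins were 10 kb long or were ranked by the ratio to the expected number.

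Fgfr1 to Fgfr4 lie beside members of shared neighbouring families, because these regions arose by duplication of an ancestral segment. Among the neighbours compared, Fgfr2 had only Tacc2 and Fgfr4 only Nsd1, and Fgfrl1 had none. Tacc genes encode centrosomal coiled-coil proteins, Nsd genes histone methyltransferases and Letm genes proteins of the inner mitochondrial membrane. Their contacts with the receptor genes were near or below what distance and anchor strength gave, with Fgfr3 and Tacc3 in NCC the 1 value whose interval lay above it. That ratio was 1.02 with distance classes of 20 kb. A ratio of 1 was not the level of every window, however. Over all Hi-C partners between 40 kb and 1 Mb, Fgfr1 had ratios of 0.794 in ESC and 0.721 in NCC, and Fgfr2 had 1.07 and 1.03. Fgfr3 had 0.587 and 0.623 there, and Fgfr4 had 0.573 and 0.591. The sides differed. On the upstream side, which holds Tacc1 and Tacc2, Fgfr1 had 1.21 and 1.06 and Fgfr2 had 0.639 and 0.605. On the downstream side, which holds Nsd3 and Nsd1, Fgfr1 had 0.4 and 0.353 and Fgfr4 had 0.379 and 0.395. For Fgfr3 the ratios were 0.505 and 0.522 upstream and 0.702 and 0.761 downstream. Partners nearer than 40 kb are not in these ratios. Fgfr1 and Tacc1, 257 kb apart, shared 165 Hi-C read pairs in ESC and 156 in NCC, 0.977 times (0.834 to 1.14) and 0.819 times (0.696 to 0.958) the expected number. Fgfr2 and Tacc2, 311 kb apart, shared 66 and 77, and were the pair with the lowest ratios, 0.441 and 0.396. Fgfr3 and Tacc3, 42.7 kb apart, shared 410 and 434, with ratios of 0.873 (0.79 to 0.961) and 1.11 (1.01 to 1.22). The Fgfr3 and Tacc3 count had a log2 ratio of 0.05 (-0.15 to 0.25) between the cell types, while the whole Fgfr3 window had -0.53 in read pairs.

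Among the Nsd pairs, Fgfr1 and Nsd3 shared 394 and 358 read pairs, with ratios of 0.577 and 0.477. Fgfr3 and Nsd2 shared 119 and 88, with ratios of 0.787 and 1.03, and Fgfr4 and Nsd1 shared 140 and 116, with ratios of 0.455 and 0.482. The Letm windows overlap those of their receptor genes. Fgfr1 and Letm2 shared 156 and 159 read pairs, with anchors in both windows left to the receptor gene, and Fgfr3 and Letm1 shared 163 and 104, with ratios of 0.532 to 0.782. Whether a pair lies above or below the expected number depended on how the expected number was made. With distance alone, 6 of the 8 ESC pairs were above it, Fgfr1 and Tacc1 at 3.29 and Fgfr3 and Tacc3 at 4.44, and Fgfr2 and Tacc2 and Fgfr4 and Nsd1 remained below, at 0.882 and 0.818. In HiChIP, the FGFR1 HiChIP count of Fgfr1 and Nsd3 was 34 in ESC and 67 in NCC (log2 ratio 0.71, interval 0.09 to 1.35). The CTCF HiChIP count of Fgfr3 and Tacc3 was 5 and 15 (1.79, interval 0.25 to 3.60). All other neighbour pairs had HiChIP intervals that included 0.

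**Figure D5:**
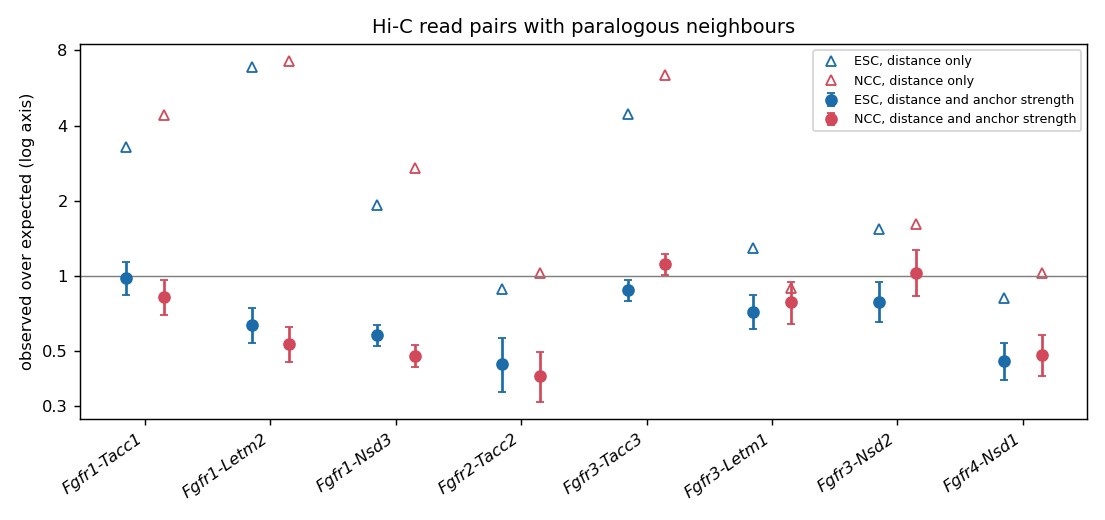
Hi-C read pairs between the FGF receptor genes Fgfr1 to Fgfr4 and their Tacc, Nsd or Letm neighbours, divided by the expected number (vertical log axis), for ESC and NCC. Circles with exact 95% intervals use distance and anchor strength, where Fgfr3 and Tacc3 lie highest in NCC at 1.11 and Fgfr2 and Tacc2 lowest at 0.441 and 0.396, and triangles use distance only, where most pairs lie above 1.

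Contacts between the receptor genes themselves were at the limit of counting. Over the 9 pairs of receptor genes on different chromosomes, the ESC Hi-C table held 1 read pair, between Fgfr2 and Fgfrl1, where 0.243 were expected from their inter-chromosomal ends, and the NCC table held 0, where 0.288 were expected. The exact 95% Poisson upper limit of a count of 0 is 3.69 read pairs. Fgfr3 and Fgfrl1, on the same chromosome, shared 0 read pairs in ESC and 1 in NCC.

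Of the 35 other genes listed for the FGF pathway, 34 were found in the annotation and all 34 had enough ends in each comparison. In Hi-C, Flrt3, a membrane protein that binds FGF receptors, was higher in NCC past 1.5-fold, with 331 and 818 ends (log2 ratio 1.27). The inhibitors Spry2 and Spry4 were lower, at -0.59 and -0.70. That made 1 higher and 2 lower of 34, beside 7.42% and 10.1% of all genes, and the median of the list was -0.10.

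In FGFR1 HiChIP 3 of the 34 were higher and 12 lower, beside 15.5% and 25% of all genes, with a list median of -0.33 against -0.14. Higher were Nras, a RAS protein, at 1.11, Plcg1, the phospholipase C gamma gene, at 0.85, and Mapk3, the gene of ERK1, at 0.63. Among the lower genes were Map2k2 at -1.14 and Map2k1 at -0.97, the kinases that activate ERK. The klotho co-receptor genes Klb and Kl had -1.06 and -0.63. The feedback inhibitors Spry2, Spry4 and Il17rd had -0.99, -0.92 and -0.69. The other lower genes were Flrt1, Shc1, Hras, Etv4 and Sos1, between -0.94 and -0.73.

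In CTCF HiChIP 7 were higher and 6 lower, beside 20% and 25.7% of all genes, with a list median of 0.02. Dusp6, an ERK phosphatase, had the highest ratio, 1.52. Plcg1, Grb2, Sos1, Flrt2 and Frs2 lay between 0.99 and 0.62. Etv4, a transcription factor downstream of FGF signalling, had the lowest, -4.01, with 111 ends in ESC and 6 in NCC, and Kl, Spred3, Spry4, Spry1 and Hras lay between -1.59 and -0.62. Plcg1 was higher in NCC in both HiChIP assays, and Kl, Hras, Spry4 and Etv4 were lower in both. Sos1 was lower in FGFR1 HiChIP and higher in CTCF HiChIP. The share of all genes called the same way in both assays was not counted, so these overlaps have no background. The Hras ratio in CTCF HiChIP rests on 53 ends in ESC and 30 in NCC, and its read-pair interval, -1.42 to 0.11, includes 0. No values per anchored base are given for the listed genes.

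The genes most like each receptor gene across the 6 levels were found as the smallest Euclidean distance of these levels on the log2 scale, over genes at least 1 Mb away or on other chromosomes. For Fgfr1 they were Foxs1, Aspg and Aldh3a2, at distances of 0.216 to 0.297, where the median gene was 2.18 away. For Fgfr2 they were Tamm41, Runx1 and Bicd2 (0.218 to 0.334, median gene 1.83), and for Fgfr3 Calm3, Adgrg5 and 4933415A04Rik (0.292 to 0.489, median gene 2.25). Pdcd11, AW011738 and Lrrc43 were nearest to Fgfr4 (0.398 to 0.415, median gene 2.12). Fgfrl1 had the least close matches, Sec14l5, Nfx1 and Ctsb (0.432 to 0.535, median gene 2.65). The 6 values come from merged tables of 3 assays and are a description of level only.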

How the data were processed

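The authors aligned Hi-C and HiChIP read pairs of E14Tg2A mouse cells to mm10 with HiC-Pro at default settings, removed duplicates, and called anchors and interactions with hichipper at default settings. They deposited 1 table of read-pair counts per interaction (score column, not normalized) for each of 3 assays in 2 cell types, with both replicates merged. No replicate could be compared or left out. Tables held 1065662 to 21279750 read pairs.

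Ends in anchors that overlapped each gene body plus 10 kb were divided by all ends of the table. Genes with at least 20 ends in both tables together were compared, and a ratio beyond 1.5-fold in either direction was counted. Bodies came from GENCODE, that of Fgfr2 from RefSeq. Expected read pairs came from distance classes of 10 kb and the ends of both anchors. Bins of 20 kb, 40 kb to 1 Mb from the window, were ranked by read pairs. Intervals are exact (Clopper-Pearson, Poisson) at 95% and cover counting error only. Read pairs inside a single anchor were kept.

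Named genes are the 5 receptors, their Tacc, Nsd and Letm neighbours, genes that start in the 3 strongest bins, pathway genes past the fold (1 is not reported here), and the 3 most alike genes per receptor. Genes whose bodies overlap or lie nearest to those bins were named after their values were seen. The genes and lists were chosen with earlier results of these data known. Alternatives covered scaling, window, anchor placement, score minimum, fold, bin length and expected number. Scripts (Python 3.11.15, NumPy 2.4.6, SciPy 1.17.1, pandas 2.3.3) were tested on simulated data.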

Additional observations from a re-analysis of the deposited data

How the results depend on the processing

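No paired analysis was possible because the deposited tables merge both replicates of each group, and for the same reason no replicate could be left out. Of 87 alternative values of the main results, 58 stayed the same, 27 moved and 2 reversed. Of 321 values of single genes, 226 stayed the same, 89 moved and 6 reversed. The causes were not tested. A value was labelled reversed only if it was past the fold in the main setting and changed sign. Smaller values that changed sign count as moved. With gene bodies alone the median NCC over ESC ratio was -0.15 in Hi-C, -0.39 in FGFR1 HiChIP and -0.22 in CTCF HiChIP, the last reversed. The FGFR1 HiChIP median changed sign too, from 0.20, which was not past the fold. With 25 kb on each side the CTCF HiChIP median reversed to -0.08. With 10 kb around the gene start the medians were 0.30 in Hi-C and -0.02 in FGFR1 HiChIP, and anchors placed by midpoint gave -0.10 in Hi-C. At the lower fold tried 2 receptor genes were called in Hi-C and 2 in FGFR1 HiChIP. Of all genes, 17.3% were higher and 21.3% lower there in Hi-C, and 25% and 38.7% in FGFR1 HiChIP. At 2-fold 0, 0 and 1 receptor genes were called in Hi-C, FGFR1 HiChIP and CTCF HiChIP. The shares of all genes higher and lower were 2.92% and 4.45%, 7.96% and 11.2%, and 10.1% and 13.5% in the same order. The median FGFR1 HiChIP over Hi-C ratio was -1.22 in ESC and -1.65 in NCC with gene bodies alone, and -1.19 in ESC with a score of at least 2. The CTCF HiChIP over Hi-C median in ESC was -0.60 with gene bodies alone and -0.49 with 25 kb, and in NCC it was -0.49 with 25 kb and -0.21 around the gene start. The median share within 1 Mb was 99.3% in ESC and 99.4% in NCC with a score of at least 2, 71% and 67% without read pairs inside 1 anchor, and 69.5% in NCC with 25 kb. Bins shared between cell types fell to 6 with 10 kb bins and 6 when ranked by observed over expected. The median ratio for the neighbours was 1.73 in ESC and 2.17 in NCC with distance alone. Single genes reversed were Fgfrl1 in CTCF HiChIP, NCC over ESC (-0.50 with its body alone, -0.37 with 25 kb), Fgfr1 in CTCF HiChIP over Hi-C in ESC (0.11) and Fgfr2 in NCC (0.15), both around the gene start. Alternatives chosen after seeing the data gave a median of -0.02 in FGFR1 HiChIP per anchored base, with Fgfr4 at -0.10 and Fgfrl1 at -0.33 in CTCF HiChIP. Anchors of equal coordinates gave no median in the HiChIP assays, where some receptor genes had 0 such anchors. Depth limits CTCF HiChIP most, with 31 to 233 ends per gene.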
